A study of Caenorhabditis elegans with 2 samples.

Results

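The superoxide dismutase genes of Caenorhabditis elegans are sod-1, sod-2, sod-3, sod-4 and sod-5, and these 5 of 19973 protein-coding genes were taken by name. They were followed in chromatin immunoprecipitation and sequencing (ChIP-seq) data for the transcription factor PHA-4. The material was whole L4 larvae, the last larval stage, of strain OP37, with pooled males and females and 2 biological replicates in 1 group. Both replicates carry the unc-119(ed3) allele on chromosome III and the insertion wgIs37, which targets pha-4. In the labels the antibody field reads pha-4, but the description speaks of eGFP-pha-4. They give no feeding state and hold no diet-restricted or untagged group, so no response to a condition could be measured. In whole animals, fewer cells with bound PHA-4 and less PHA-4 bound per cell cannot be told apart.

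Superoxide dismutases turn superoxide, a by-product of respiration, into hydrogen peroxide and oxygen. The worm has copper/zinc enzymes outside the mitochondria and manganese enzymes inside them. PHA-4 is a FoxA forkhead factor that specifies the pharynx and is also required in adults for the long life of worms under diet restriction, where superoxide dismutase genes are among those that respond to it. DAF-16, the FoxO forkhead factor of insulin signalling, is a known activator of sod-3 and recognises related DNA letters.

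None of the sod genes had a region in the authors' list of reproducible regions, made with the irreproducible discovery rate (IDR) procedure. That list held 1484 regions, and 6.24% of protein-coding genes had one of its summits in a promoter window, from 1000 bp upstream to 200 bp downstream of an annotated transcript 5' end. With gene bodies added, the count was again 0 of 5, where 6.97% of genes had one. In the authors' pooled list of 30000 regions, which keeps background regions on purpose, sod-1, sod-2, sod-3 and sod-4 each had a summit in a promoter window, and sod-5 had none. That is 4 of 5 genes, where 45.0% of protein-coding genes had one, or 57.0% with gene bodies added. The replicates' own lists held 21039 and 20807 regions for replicates 1 and 2. Both lists had sod-1 and sod-2, while sod-4 stood in that of replicate 1 alone and sod-3 in that of replicate 2 alone. That is 3 of 5 genes in each list, where 37.0% of protein-coding genes had a window summit in replicate 1 and 37.5% in replicate 2 (47.8% and 48.8% with gene bodies). No test was made of 5 genes chosen with results of these data known, and nothing particular to them follows from these counts.

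**Figure D1:**
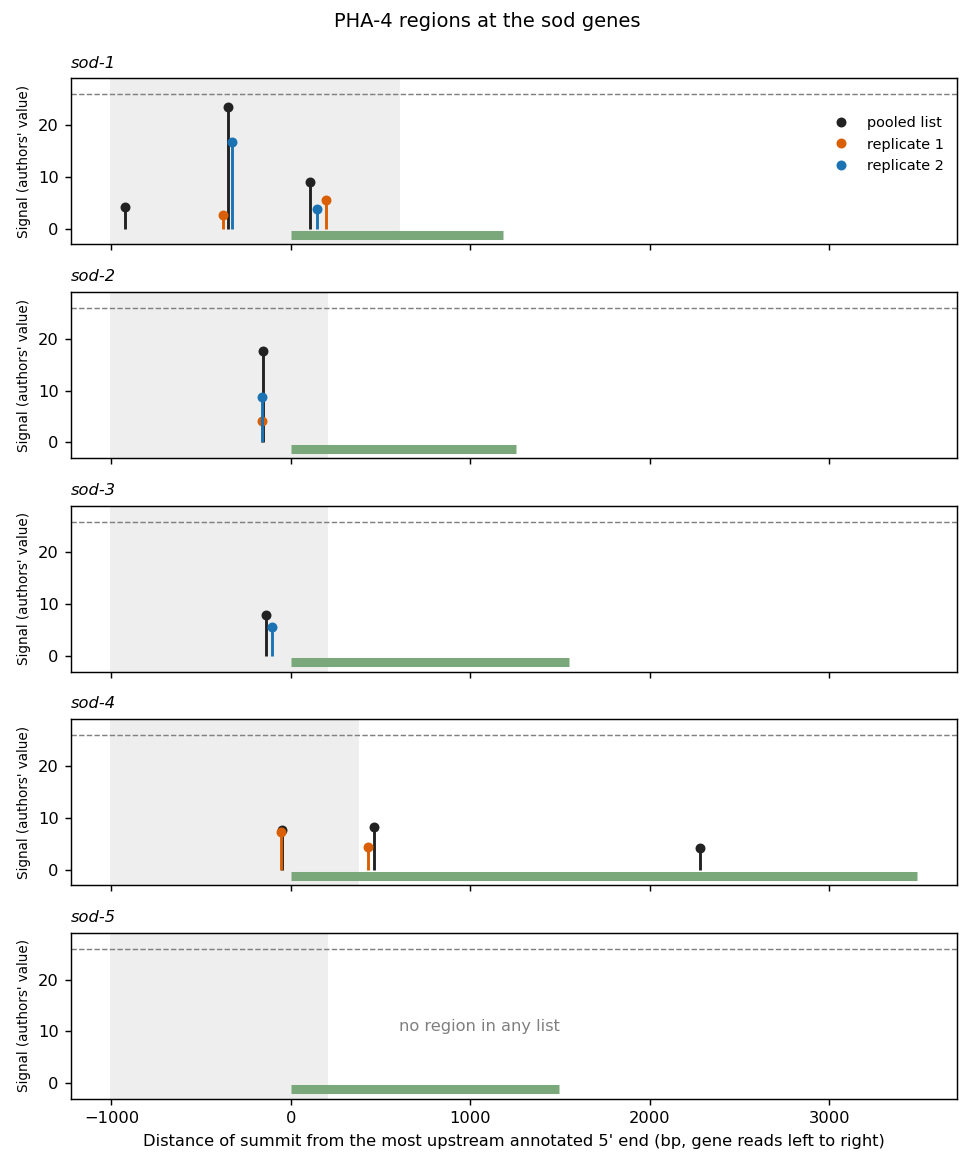
Regions at the 5 sod genes, with the distance of each summit from the gene's most upstream 5' end in bp (x) and the authors' signal (y, no stated unit) in the pooled list and in each replicate's list. Shading marks the promoter windows, the green bar the gene and the dashed line the lowest signal in the IDR list (25.9). Every summit lies below that line, sod-1 and sod-2 have points from both replicates, and sod-5 is empty.

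The copper/zinc enzymes come first. SOD-1 is the main cytosolic enzyme, and its gene (WBGene00004930, II:6972706-6973887, minus strand, ce11) had the strongest sod region. The region lay at II:6974080-6974389 with its summit 348 bp upstream of the gene, between genes, and in no other gene's promoter window. Signal, the value the authors gave each region on a scale they do not state, was 23.4 in the pooled list, which put the region at rank 1864 of 30000. The lowest signal in the IDR list, which holds the strongest pooled regions, was 25.9, so the sod-1 region stood 380 ranks below its end at 90.2% of that signal. Its replicates were far apart, with 2.64 in replicate 1 (rank 16643 of 21039) and 16.8 in replicate 2 (rank 756 of 20807). Replicate 2 was thus 6.37 times replicate 1, a log2 ratio of replicate 1 to replicate 2 of -2.67. Over the 7769 pooled regions matched in both replicates by summits within 150 bp, that ratio had a median of 0.13 and an SD of 0.94, and 39 regions (0.502%) were as far from equal. Among 1034 matched regions with a pooled signal from 20 to 26, a range chosen after the sod-1 value was seen, 11 (1.06%) were.

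The 101 bases around that summit are shown because the region is the strongest of any sod gene. They stand at II:6974185-6974285 in ce11, from the RefSeq copy of that assembly as all bases printed here, read along the minus strand towards sod-1, and capitals mark a match to the forkhead heptamers.
sod-1 upstream region: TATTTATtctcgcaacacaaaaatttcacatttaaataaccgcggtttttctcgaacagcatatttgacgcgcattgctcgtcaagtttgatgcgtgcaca

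The heptamers searched, on either strand, were TATT or TGTT followed by a keto base, a purine and a pyrimidine. The only match, TATTTAT, had its centre 47 bp from the summit on the side away from the gene, and the middle of the region held none. A match of this kind stood in 33.4% of the same windows at pooled summits, in 48.2% at IDR summits and in 31.9% of windows of that length centred 150 bp upstream of protein-coding genes.

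The sod-1 gene had further pooled regions on either side of that one. The gene has 2 annotated 5' ends, 404 bp apart. The region at II:6973624-6973933 had its summit in a sod-1 intron, 108 bp downstream of the most upstream 5' end and upstream of the other. This region, called intronic here, had a pooled signal of 8.93, with 5.62 in replicate 1 and 3.83 in replicate 2. Here the order of the replicates was the other way round (log2 ratio 0.55), and 54.3% of matched regions were as far from equal or farther. The third, at II:6974656-6974965 and 924 bp upstream, had a signal of 4.26 and no match in either replicate. In replicate 1 the intronic region was thus the strongest at sod-1, and in replicate 2 the upstream one. The intron window held no forkhead heptamer and 1 GATA sequence (TGATAA), found in 11.7% of windows at pooled summits.

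SOD-4 is the extracellular copper/zinc enzyme. Its gene (WBGene00004933, III:9496884-9500375, minus strand) has 4 annotated transcripts with 3 different 5' ends and is the longest of the members at 3492 bp. It had 3 pooled regions. The promoter region at III:9500272-9500581, with its summit 52 bp upstream of the gene, had a pooled signal of 7.61 and rank 9672, with 7.16 in replicate 1 and no region in replicate 2. The region at III:9499756-9500065 lay in an intron, 464 bp inside the gene from its most upstream 5' end, with a pooled signal of 8.16, 4.44 in replicate 1 and again none in replicate 2. The last, at III:9497939-9498248, was also intronic, 2281 bp into the gene, with 4.25 and no match in either replicate. All replicate support at sod-4 therefore came from replicate 1. Of all pooled regions with a signal from 7 to 10, 34.9% were matched in both replicates, 31.4% in replicate 1 alone and 28.4% in replicate 2 alone.

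The sequence around the promoter summit of sod-4 is shown because that region alone lay just upstream of the gene. It stands at III:9500377-9500477 in ce11 on the minus strand, read towards the gene.
sod-4 promoter region: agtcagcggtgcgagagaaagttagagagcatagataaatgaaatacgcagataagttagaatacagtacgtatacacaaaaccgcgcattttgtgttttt

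No capitals appear, since this window held none of the sequences searched, which were the forkhead heptamers, GTAAACA (the DAF-16-binding letters, which are TGTTTAC on the other strand and so one of the heptamers), TGATAA and the E-box CACGTG. The windows at both intronic sod-4 summits also held none.

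SOD-5 is a second cytosolic copper/zinc enzyme, known for its rise in the dauer larva, a resting stage. Its gene (WBGene00007036, II:4417633-4419130, plus strand) had no region in any of the lists from 1000 bp upstream to the end of the gene. The nearest pooled summit upstream was 4014 bp away, in an exon of ZK430.5, with a signal of 4.04. The nearest downstream was 1017 bp past the gene at II:4419992-4420301, with a signal of 9.53 (2.07 and 6.64 in the nearest regions of replicates 1 and 2). It lay in the promoter window of bpnt-1, the next gene. The gap of 6528 bp between those summits compares with a median of 1481 bp between neighbouring pooled summits, and 12.3% of gaps were as wide. That gap was looked at because sod-5 had no region, so it had to be wider than the 2498 bp searched there. The share therefore shows nothing particular about sod-5. Since the files list regions and not coverage, a missing region does not show that PHA-4 was absent from sod-5.

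The 200 bases upstream of sod-5 are shown because they hold forkhead heptamers without a listed region. They stand at II:4417433-4417632 in ce11 on the plus strand, end 1 base before the gene, and have the heptamers in capitals.
sod-5 upstream: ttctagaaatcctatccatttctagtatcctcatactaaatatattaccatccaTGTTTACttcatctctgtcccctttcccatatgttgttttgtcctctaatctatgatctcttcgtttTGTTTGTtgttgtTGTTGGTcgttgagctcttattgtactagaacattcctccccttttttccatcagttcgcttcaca

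The first match began 146 bp upstream of the gene and is TGTTTAC, the other strand of the DAF-16-binding letters. The others began 79 and 66 bp upstream. The whole sod-5 promoter window held 5 heptamers, and 43.6% of protein-coding promoter windows held at least as many.

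SOD-3, a mitochondrial manganese enzyme, is a classic target of DAF-16. Its gene (WBGene00004932, X:17092753-17094306, plus strand) had 1 pooled region, at X:17092458-17092767, with the summit 140 bp upstream. The summit also lay in an intron and in the promoter window of C08A9.3, a gene on the opposite strand, so it cannot be given to sod-3 alone. Its pooled signal was 7.91 at rank 9252. Replicate 2 had 5.65 there (rank 6191) and replicate 1 had no region. The 101 bases at X:17092563-17092663 in ce11, plus strand, are shown because they hold a pair of forkhead heptamers near the summit, in capitals.
sod-3 promoter region: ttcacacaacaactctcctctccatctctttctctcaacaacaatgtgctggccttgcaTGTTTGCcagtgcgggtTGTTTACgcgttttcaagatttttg

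The first, TGTTTGC, had its centre 12 bp from the summit towards the gene, and the second, TGTTTAC, 29 bp from it. The second is the DAF-16-binding sequence read on the other strand, which stood in 2.90% of windows at pooled summits, in 8.56% at IDR summits and in 1.78% of windows centred 150 bp upstream of genes. Over its whole promoter window sod-3 held 10 heptamers, a number that 2.58% of protein-coding promoter windows reached, and 2 copies of the DAF-16-binding letters, which 1.51% reached.

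SOD-2 is the main manganese enzyme of the mitochondrial matrix. Its gene (WBGene00004931, I:8434550-8435807, plus strand) had 1 region, at I:8434238-8434547, with the summit 157 bp upstream. The summit lay in an intron of dpt-1, a gene on the opposite strand, and in no other gene's promoter window. The pooled signal was 17.7 at rank 3166. Replicate 1 had 4.20 (rank 10255) and replicate 2 had 8.73 (rank 3261), with summits 5 and 3 bp from the pooled one. The log2 ratio of replicate 1 to replicate 2 was -1.06, and 26.1% of matched regions were at least as far from equal. Of pooled regions with a signal from 15 to 20, 84.4% were matched in both replicates.

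Both manganese genes thus had a single region, in the promoter, at nearly the same distance from the gene. Both summit windows held a pair of forkhead heptamers, 1 of which has the DAF-16-binding letters. At least 1 heptamer stood in 33.4% of windows at pooled summits. The share with a pair was not counted, so nothing particular to these genes follows from the pairs. At sod-2 the heptamer without the DAF-16-binding letters was centred 12 bp from the summit away from the gene and on the opposite strand. The other was centred 17 bp from the summit towards the gene. The sod-2 promoter window held 8 heptamers (9.85% of promoter windows held as many) and, like that of sod-3, 2 copies of the DAF-16-binding letters. The promoter windows of sod-1 and sod-4 held 4 and 3 heptamers, numbers that 60.7% and 77.7% of promoter windows reached, and 0 copies of those letters. That of sod-5, also a copper/zinc gene, held 5 heptamers, which 43.6% of promoter windows reached. It held 1 copy of those letters, which 15.1% reached, so having a copy does not separate the manganese from the copper/zinc genes. The windows at the sod-1 and sod-4 summits held no copy. No summit window held the E-box, which stood in 2.65% of windows at pooled summits. A match is a description of the letters and does not show that PHA-4 or DAF-16 contacts them, and these members were not tested as a set.

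**Figure D2:**
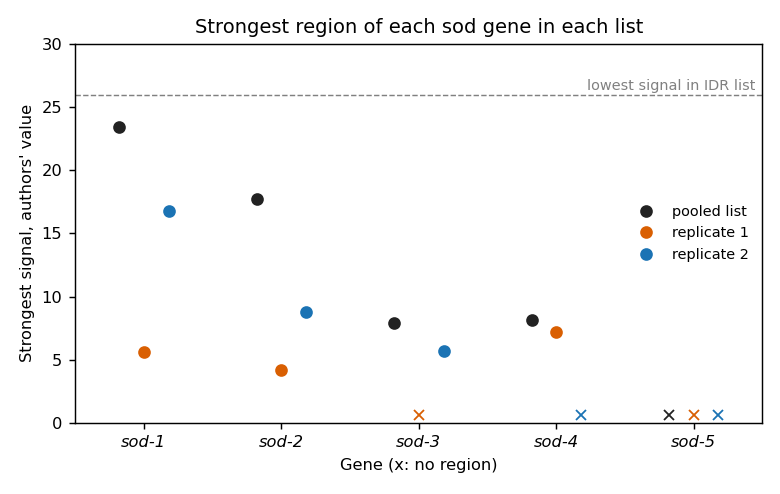
The strongest signal (y, authors' value) in promoter window or gene body for each sod gene (x) in the pooled list and in each replicate, with crosses for no region. The pooled values are 23.4 for sod-1, 17.7 for sod-2, 7.91 for sod-3 and 8.16 for sod-4, all under the lowest IDR signal of 25.9.

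Set in order by strongest pooled signal, the genes were sod-1, sod-2, sod-4 and sod-3, with sod-5 without a region. The difference between sod-4 and sod-3, 8.16 against 7.91, is small beside the gap between replicates at either gene, each of which had a region in 1 replicate alone. By strongest region of any kind, sod-1 was above sod-2 in each replicate, with 5.62 against 4.20 in replicate 1 and 16.8 against 8.73 in replicate 2, but the sod-1 values belong to different regions. At the upstream sod-1 region alone, which sets the pooled order, replicate 1 had 2.64, below the 4.20 of sod-2, so there the order differed between replicates. The place of sod-4 in the order also differed between replicates, since in replicate 1 its 7.16 was the strongest of the members and in replicate 2 it had none.

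Among all protein-coding genes, a strongest pooled signal as high as that of sod-1 was found in 8.60% and as high as that of sod-2 in 13.5%. For sod-4 and sod-3 these shares were 28.5% and 29.1%. The 11375 genes with a pooled region had a median of 8.16 and quartiles of 4.26 and 17.0, so sod-1 and sod-2 lay above the upper quartile and sod-3 and sod-4 next to the median. A longer gene has more room for a region, and the stretches searched ran from 2182 bp for sod-1 to 4492 bp for sod-4. In promoter windows alone, the shares were 7.68% for sod-1, 12.1% for sod-2, 26.1% for sod-4 and 25.5% for sod-3.

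**Figure D3:**
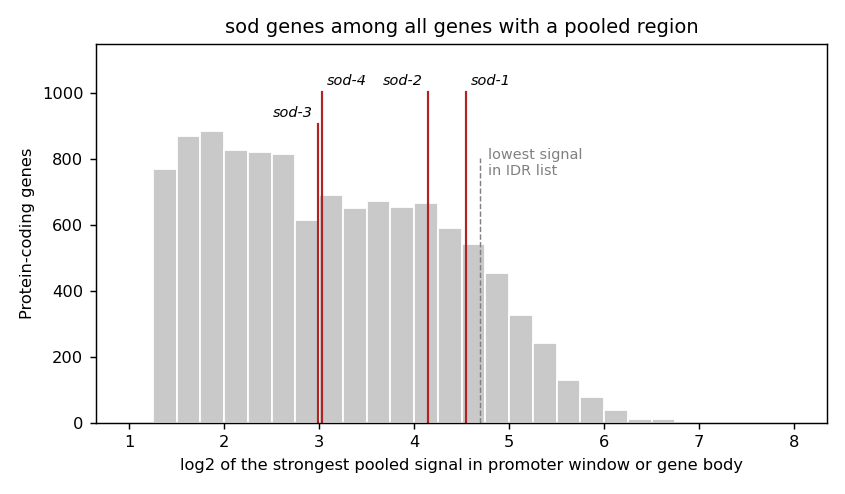
Number of protein-coding genes (y) by the log2 of their strongest pooled signal in promoter window or gene body (x), over the 11375 genes that have a region. Red lines mark sod-1 and sod-2 above the upper quartile and sod-3 and sod-4 near the middle, and the dashed line marks the lowest signal in the IDR list.

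The 8 pooled regions of the sod genes also differed in replicate support. Both replicates matched 3 of them, 1 replicate matched 3 and neither matched 2. In the whole pooled list 25.9% were matched in both, 24.8% in replicate 1 alone, 23.6% in replicate 2 alone and 25.6% in neither. The summits lay in an intron of some gene in 5 cases, between genes in 3 and in an exon in 0. Over the whole lists, 31.2% of pooled summits and 13.3% of IDR summits lay in an exon. Those shares cover regions anywhere, while the sod regions were taken from promoter windows and gene bodies alone. Shares in introns and between genes were not counted, so nothing particular to the sod genes follows from these places.

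**Figure D4:**
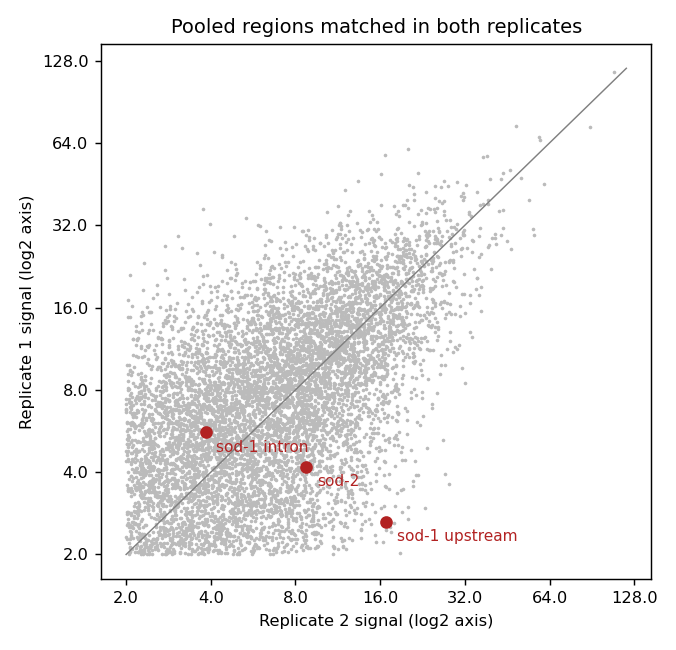
Signal in replicate 1 (y, log2 axis) and replicate 2 (x, log2 axis) of the 7769 pooled regions matched in both replicates, with the line of equality. The sod-1 upstream region (2.64 and 16.8) sits at the lower edge of the cloud, while sod-2 (4.20 and 8.73) and the sod-1 intron region (5.62 and 3.83) lie inside it.

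Genes that act on the product of superoxide dismutases, hydrogen peroxide, or in related antioxidant steps stood near the background of all genes. Of 18 genes of catalases, peroxiredoxins, glutathione peroxidases, thioredoxins and their reductases and msra-1, a methionine sulfoxide reductase, 0 had an IDR summit in a promoter window, where 6.24% of protein-coding genes had one. In the pooled list 8 of 18 had a summit in a promoter window and 12 with gene bodies added, where 45.0% and 57.0% of all genes did. The highest value was 21.9 at msra-1 (17.0 in replicate 1 and 5.78 in replicate 2), in its promoter window, though its enzyme does not act on the peroxide itself. Next came the peroxiredoxin gene prdx-2 with 15.6 (11.1 in replicate 1 and no match in replicate 2). The median strongest pooled signal, with no region taken as 0, was 8.16 for the 5 sod genes, 4.25 for these 18 and 3.20 for all protein-coding genes.

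Genes that act at sources of superoxide had 1 IDR summit among 9, where 6.24% of all protein-coding genes had one in a promoter window, and a list this short allows no reading of that count. It was at isp-1, the iron-sulfur subunit of complex III, where the signal was 30.9 (14.4 and 13.5 in replicates 1 and 2), in a region shared with F42G8.16 and islo-1. The complex I gene gas-1 (23.7), cyc-1, the cytochrome c1 gene (24.1), and mev-1, the cytochrome b subunit of complex II (17.9), had pooled regions only, and those of gas-1 and mev-1 also lay in neighbours' promoter windows. The list's median was 16.5, with values from 2.63 to 30.9, and 3 of its 9 genes reached the sod-1 value, as 8.60% of all protein-coding genes did. In the pooled list 8 of the 9 had a summit in a promoter window and 9 with gene bodies added, where 45.0% and 57.0% of all genes did. This list too was chosen with results of these data known and was not tested.

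The last list held 12 regulators of sod genes or of the response to diet, with values from no region to 60.3. Of these genes, 4 had an IDR summit in a promoter window, namely daf-16, smk-1, wwp-1 and hlh-30, and daf-2, the insulin receptor gene, had one in an intron (30.1, also an exon of linc-143), for 5 with gene bodies. Over all protein-coding genes those shares were 6.24% and 6.97%, and the list, chosen with results of these data known, was not tested. The strongest regions were in an intron of daf-16 itself (60.3, with 34.9 in replicate 1 and 26.9 in replicate 2) and at smk-1 (55.8, with 29.1 and 26.5), a partner of PHA-4 in diet restriction, in a region shared with fip-4. At wwp-1, a ubiquitin ligase gene of the same response, the signal was 55.3 (27.7 and 29.5), in a region shared with Y65B4BR.10, and at hlh-30, an autophagy regulator, 42.8 (24.6 and 15.5), shared with W02C12.4. The skn-1 gene, an oxidative stress regulator, had its strongest region in an intron at rank 1872, a few places below that of sod-1 (rank 1864). There replicate 1 was the higher, with 19.2 and 4.26. The hsf-1 gene (8.45) stood at the level of sod-3 and sod-4, and drl-1 had no region. In the pooled list 10 of the 12 had a summit in a promoter window and 11 with gene bodies added, where 45.0% and 57.0% of all genes did. The list's median was 22.0, against 3.20 for all genes, and it holds long genes such as daf-16 and hlh-30 with 22 pooled regions each. At pha-4 itself the strongest region had 60.8, with 49.4 in replicate 1 and 16.1 in replicate 2, and was shared with F38A6.6.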

How the data were processed

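The authors deposited lists of ChIP-seq regions in narrowPeak layout on ce11 for each replicate, for both pooled, and after the IDR procedure. Per the manifests deposited with them, lists were called on alignments against a control, with background regions kept. Which program called them, and at which IDR threshold, is not given in the sources used here. Region signal was deposited by the authors on an unstated scale, and the deposited −log10 q value is capped (4.10 in the pooled list), so ranks follow signal. Read counts are missing from the lists, so depth is unknown and no counting interval is given. The ce10 lists were not used.

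Genes came from Ensembl release 115 (WBcel235, the ce11 sequence), on the nuclear chromosomes, and bases from the RefSeq copy of that assembly. Annotated 5' ends may be trans-splice sites. A summit, the deposited offset plus the start, was tied to every gene whose window or body held it. Replicate values came from the strongest summit at most 150 bp away. No test of conditions was possible with 1 group, and none was made of the members. The named genes were the 5 members, their neighbours at a summit, pha-4 and 3 hand-written lists, of which the text names every gene with an IDR summit and up to 3 others, those 3 picked after their values were seen. The members and lists were chosen with earlier results of these data known. Region assignment was tested on simulated data. Python 3.11.15, NumPy 2.4.6, pandas 2.3.3 and matplotlib 3.10.9 were used. Alternatives were other windows, overlap in place of summits, other list lengths, nearest 5' ends and single replicates. No sequence of sod-2 is printed.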

Additional observations from a re-analysis of the deposited data

How the results depend on the processing

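No sod gene had an IDR summit with windows of 2000 and 500 bp or 500 and 100 bp, by overlap of at least 1 bp, with the strongest 742 regions of the IDR list or with the nearest 5' end. In place of the IDR list, the strongest 6000 pooled regions gave 2 genes (sod-1 and sod-2), with or without gene bodies. Leaving out each replicate, with the other's strongest 1484 regions, gave 0 to 1 genes, the 1 being sod-1 without replicate 1. The pooled count of 4 genes held with both other windows, by overlap and in the strongest 10000 regions, and was 3 without either replicate. The share of all genes was not counted for the pooled list under those settings, so these counts have no background beside them. In the replicates' own lists, with 3 genes each, the shares were 37.0% for replicate 1 and 37.5% for replicate 2. Strongest signals were the same with both other windows and by overlap. In single replicates they were 5.62 (the intronic region) to 16.8 (the upstream region) for sod-1, whose upstream region alone ran from 2.64 to 16.8, and 4.20 to 8.73 for sod-2, with 5.65 for sod-3 and 7.16 for sod-4 in the only replicate that had a region. Whether the pooled and single lists share a scale was not tested, nor was the cause of any of these differences. The share of all genes with an IDR summit was 8.19% and 5.10% with the wider and narrower window, 3.20% with the strongest 742 regions, 19.6% with the strongest 6000 pooled regions and 4.63% with the nearest 5' end. It was 6.57% by overlap, 6.04% without replicate 1 and 5.91% without replicate 2. Matching replicates within 50 or 300 bp, chosen after the data were seen, left the log2 ratios at sod-1 and sod-2 as they were, except that the intronic sod-1 region had no match within 50 bp in replicate 1. No paired analysis was possible because there is 1 group. With depth unknown, a region missing from a list may lie below what that library could show.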
